A study of Mus musculus with 20 samples.

Results

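Replication-dependent histone genes were described here in N2A cells, a mouse neuroblastoma line, as 65 of the 34083 genes that the deposited transcript tables could be summed to. Members were the protein-coding genes whose symbol in GENCODE vM21, a gene annotation of the mouse build GRCm38, begins with Hist1h, Hist2h, Hist3h or Hist4h. The annotation holds 67 such genes, and Hist1h2bh and Hist1h2bm had no entry in the tables. The 65 genes comprise 6 of the linker histone H1, 18 of H2A, 16 of H2B, 12 of H3 and 13 of H4. By position, 52 lie on chromosome 13, 10 on chromosome 3, 2 on chromosome 11 and 1 on chromosome 6.

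RNA was sequenced in bulk from 20 libraries in 2 batches. Batch 1 held 3 libraries each of unexposed negative control cells (NC) and of 4 exposed groups, each scanned with 1 pulsed laser (20X objective). The group I0-E0 was given 20 mW and a fluency of 10 J/cm2 at a dwelling time of 2 µs per pixel, I0-E2 received 20 mW and 48 J/cm2 at 10 µs, I0-E4 received 20 mW and 95 J/cm2 at 20 µs, and I2-E2 received 100 mW and 48 J/cm2 at 2 µs. Batch 2 held 2 NC libraries and 3 libraries of I3-E3-SRS, in which both lasers of stimulated Raman scattering were used through a 60X objective at 79 J/cm2 and 2 µs. RNA was taken 1 h after exposure, the cells were not otherwise treated, and the labels give poly(A) RNA as the molecule sequenced. The study's methods describe whole wells of a plate, exposed or left unexposed, and neither they nor the labels say that wells of a group were grown as separate cultures before seeding. P-values therefore measure only the spread between these libraries, which may be in part technical. The comparison asks whether laser exposure changed the abundance of these transcripts in the RNA captured. In bulk RNA fewer cells that carry a transcript cannot be told apart from less of it per cell. In poly(A) RNA a change in how much of a transcript was polyadenylated or captured cannot be told apart from either.

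The genes of this family encode the core histones H2A, H2B, H3 and H4, around which DNA is wound, and the linker histone H1, which binds where DNA enters and leaves the nucleosome. They are transcribed mainly in S phase, and most of their mRNAs end in a conserved stem-loop in place of a poly(A) tail. The stem-loop is bound by Slbp, and the mRNA is cut shortly after it by a complex that contains the U7 small nuclear RNA. Some members are also known to produce longer mRNAs that end at a downstream poly(A) signal, chiefly in cells that are not dividing.

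Libraries held 5473588 to 12698770 estimated reads. The estimates came from the Salmon quantifier and are not whole numbers, because a read that fits several transcripts is divided between them. NC replicate 1 of batch 2 stood apart in how its transcript lengths were treated. There 93.4% of effective lengths were whole numbers, against at most 0.492% in any other library, and 26.9% of all TPM (a level corrected for transcript length and scaled to the same sum in each library) lay on transcripts shorter than 250 bases, against 0.960% to 1.504% elsewhere. Hist1h2ap had 1080 TPM there against 2286 in NC replicate 2, while its CPM (reads scaled to the library total, with no correction for length) were 392 and 381. Changes between groups were taken from reads, and TPM was used only to set the levels of different genes side by side. NC replicate 1 of batch 2 stood apart in reads too, so it bears on the changes in that batch. It had a read for 38 histone genes, against 46 to 53 in the other libraries. With the lowest total, 5473588 reads, it also had the fewest genes with a read, 15523. I0-E0 replicate 3 had at least 1 read for 19940 genes, against 15979 to 17173 in the other libraries of batch 1. By mean over the 20 libraries, 8 of 10 N2A markers had at least 10 TPM and Nefl and Nefm were below 1 TPM, while none of 13 markers of other cell types had a mean of 10 TPM and 10 of them had a mean below 1 TPM. The highest of these 13, Pecam1, had a mean of 4.66 TPM and reached 13.4 TPM in 1 library.

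The histone stem-loop was looked for on the sense strand of the annotated transcripts, as 16 bases that read GG, any 2 bases, CTT, any base, T, any base, AG, any 2 bases and CC. The search was limited to the 51 transcripts, of 48 members, whose version and length are the same in the tables and in GENCODE vM21, because 22 other transcripts differ in version or length. It was found in 29 of the 51, in 7 forms, and the commonest form, in 17 transcripts, was the one carried by Hist1h2ap. Of 58686 other protein-coding transcripts 161 (0.274%) held the pattern, and 1 of them held it within 100 bases of the 3′ end. The stem-loops are given for those of the 10 highest members in which one was found, and for Hist1h2ao, the near-copy of Hist1h2ap, with the 12 bases before them, because the members differ there and in how far the annotated transcript runs on. The stem-loop is in capitals, each sequence is the sense strand, and all are from GRCm38.
Hist1h2ap, chr13:21833029-21833056, minus strand, 3 bases before the annotated end: aaaaaaaaaaaaGGCTCTTTTCAGAGCC
Hist1h2ao, chr13:21810886-21810913, plus strand, 31 bases before the end: aaaaaaaaaaaaGGCTCTTTTCAGAGCC
Hist1h4n, chr13:21831798-21831825, minus strand, 31 bases before the end: ttctcaactaaaGGCCCTTTTCAGGGCC
Hist1h2bk, chr13:22036288-22036315, plus strand, 30 bases before the end: tctagcaccaaaGGCTCTTTTAAGAGCC
Hist1h4i, chr13:22040966-22040993, minus strand, 330 bases before the end: atgctacttaaaGGCCCTTTTTAGGGCC
Hist3h2ba, chr11:58949337-58949364, plus strand, 169 bases before the end: ccccaacccaaaGGCTCTTTTCAGAGCC
Hist1h1c, chr13:23739500-23739527, plus strand, 840 bases before the end: aacaatccaaaaGGCTCTTTTCAGAGCC

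In Hist1h2ap and Hist1h2ao, a pair of H2A genes, an unbroken run of 12 A lies directly before the stem-loop. The longest run of A anywhere in the other 49 transcripts was 7 bases, whereas 3120 of the 58686 other protein-coding transcripts (5.32%) hold a run of 12 A. Among members left out because version or length differ, the GENCODE vM21 transcript of Hist1h2ac holds a run of 15 A. Transcripts of Hist1h2be that were left out hold runs of 11 A there. In the other members shown the bases next to the stem-loop are AAA, and those before them are mixed. These sequences are a description of the annotation, and whether the run of A bears on how often a transcript was captured was not tested.

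One gene held most of the histone reads. Over the 20 libraries 51639 reads, 0.0323% of all reads, were assigned to the 65 genes, and Hist1h2ap took 35832 of them (69.4%). Its share of histone reads ranged from 40.1% to 83.9% between libraries. Its level was 1112 ± 626 TPM (SD, n = 20), with a lowest value of 370, a median of 972 and a highest of 2286, which ranked it 149 of 34083 genes. Hist1h2ap (ENSMUSG00000094777.2) lies at chr13:21833026-21833507 on the minus strand, is annotated as a single exon of 482 bases, and encodes a canonical H2A. Of its 31-base words only 6.64% occur in no other gene and 93.4% occur in Hist1h2ao, so the division of reads within this pair rests on few bases. Hist1h2ap was given 99.7% of the reads of the pair.

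The next members were far lower, and they include linker and H2B histones. Hist1h2bc, an H2B gene, had 32.4 ± 8.47 TPM (SD, n = 20), and Hist1h1c, a linker histone gene, had 31.9 ± 5.84 TPM. Hist3h2ba, an H2B gene on chromosome 11, followed with 28.9 ± 5.79 TPM. These levels do not differ beyond their spread, and that of Hist1h2ap was 34.3 times that of Hist1h2bc. Together Hist1h2ap and these 3 genes held 84.8% of all histone reads. Hist2h2bb, another H2B gene, had 12.1 ± 5.93 TPM, but each of its words occurs also in the overlapping readthrough gene Gm20628, so its reads cannot be told apart from that gene.

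Places 6 to 10 were taken by 5 genes with overlapping ranges. They were Hist1h4n at 8.57 ± 5.83 TPM, Hist1h4k at 7.53 ± 4.37, Hist1h3i at 7.44 ± 4.03, Hist1h2bk at 7.26 ± 2.83 and Hist1h4i at 7.02 ± 2.28 (SD, n = 20). Their reads were few, from 102 for Hist1h4k to 392 for Hist1h4i over all 20 libraries. Hist1h4n, Hist1h4k and Hist1h3i have 12.5%, 13.8% and 6.82% of words of their own, so these values depend on how reads were divided between near-identical copies. The same 10 genes led when NC replicate 1 of batch 2 was left out.

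**Figure D1:**
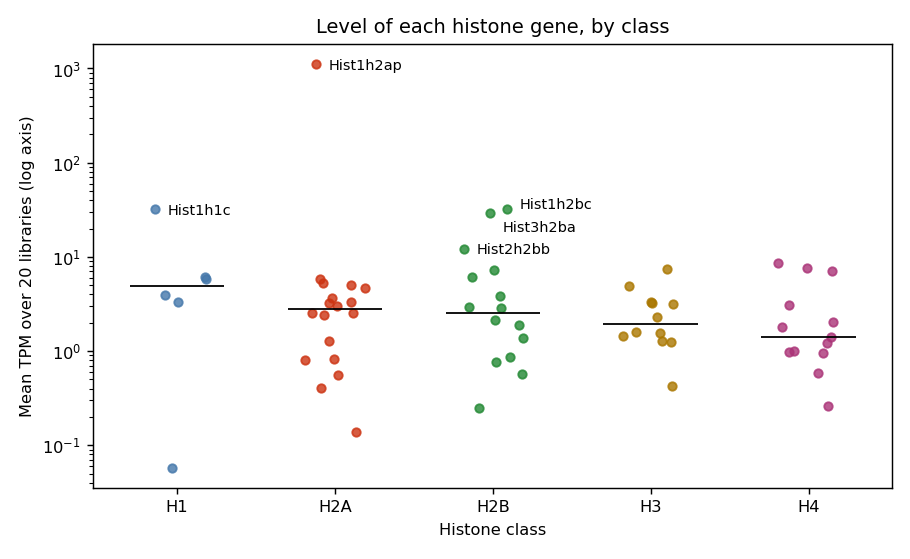
Level of each histone gene, as mean TPM over 20 libraries on a log axis, by histone class. Each point is 1 gene and the line is the median of the class. Hist1h2ap stands alone at 1112 TPM, the next genes lie near 30 TPM, and Hist1h2ba, at 0 reads, is not drawn.

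By class, the median level was 4.85 TPM for H1, 2.77 for H2A, 2.52 for H2B, 1.94 for H3 and 1.41 for H4. Of the 65 genes 5 had at least 10 TPM, 43 had 1 to 10 TPM and 17 had less than 1 TPM. The 5 genes over 10 TPM comprise 3 H2B genes, 1 H1 gene and 1 H2A gene, and none of the 12 H3 or 13 H4 genes reached that level. Without Hist1h2ap, 15807 reads remained, of which H1 held 36.6%, H2B 33.2%, H2A 13.5%, H4 8.92% and H3 7.77%. Every library had a read for 20 of the 65 genes, and 8 genes had fewer than 20 reads over all libraries. Hist1h2ba, an H2B gene known from testis, had 0 reads in every library, and the testis genes Hist1h1t and Hist1h2aa had 3 and 3.01 reads in total. The number of unique words sets a limit on single genes, because 21 genes have less than 20% of words of their own and 5 of these have none.

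Annotated ends were compared with levels over the 51 transcripts. Of these, 17 end within 100 bases after the stem-loop, 12 run 108 to 2445 bases past it, 11 hold the coding sequence alone and 11 hold more than the coding sequence but no stem-loop of this form. Median levels were 1.56, 1.44, 3.20 and 1.02 TPM in that order, and the ranges of the groups overlapped. A poly(A) signal (AATAAA or ATTAAA) lay in the last 50 bases of 10 of the 12 transcripts that run past the stem-loop, of 5 of the 11 without one, and of none of the 17 short transcripts or of the 11 that are coding sequence alone. Over all 51 transcripts the median was 0.958 TPM for the 15 with a signal and 2.54 TPM for the 36 without. TPM is divided by length, and the 12 that run past the stem-loop have 539 to 2863 bases, against 391 to 620 for the 17 short ones. In reads the 12 held 8338, of which Hist1h1c held 4726. The 17 held 37153, of which Hist1h2ap held 35832, and the coding sequences alone held 927. The medians therefore do not show which forms were captured more often. Hist1h1c and Hist3h2ba, the highest members after Hist1h2ap in this set, both carry a signal, and Hist1h2ap does not. Transcripts that hold the coding sequence alone, among them Hist2h2bb, Hist1h4k and Hist1h3i, are annotated without their ends, so their values count reads on the coding part only.

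**Figure D2:**
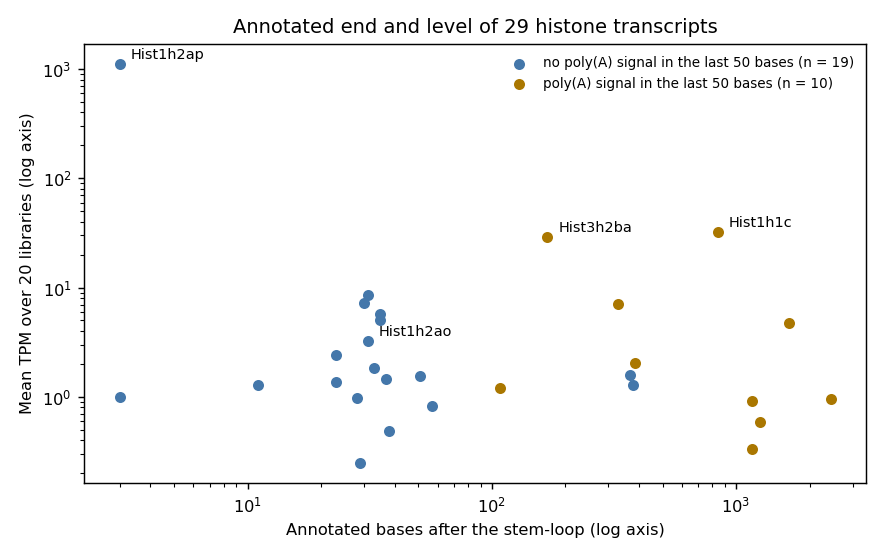
Mean TPM over 20 libraries against the annotated number of bases after the stem-loop, both on log axes, for the 29 transcripts in which the stem-loop was found. Colours mark whether the last 50 bases hold a poly(A) signal. Hist1h2ap, which ends 3 bases after the stem-loop, lies far above the other 28, and Hist1h1c and Hist3h2ba are the highest of the transcripts with a signal.

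Histone variants listed as replication-independent, that is, made also outside S phase, were on the scale of Hist1h2ap or below it. H3f3b and H3f3a, which encode the replacement histone H3.3, had 1310 ± 114 and 1082 ± 121 TPM (SD, n = 20), and H2afz, which encodes H2A.Z, had 923 ± 303 TPM. The median over 11 such variants was 159 TPM, against 2.53 TPM over the 65 replication-dependent genes. Slbp, the stem-loop binding protein, had 105 ± 14.2 TPM. All 20 genes of an S phase list were present, with a median of 128 TPM.

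Hist1h2ap differed between libraries and between batches, and the sum of the other 64 genes stayed in a narrower range. The sum averages over genes, and of the single members with few reads some varied more than Hist1h2ap and others less. The biological coefficient of variation in batch 1 was 53.0% for Hist1h4n and 35.3% for Hist1h3i, against 25.4% for Hist1h2ap. It was 18.4% for Hist1h4i and 19.7% for Hist1h2be. In CPM, the 3 NC libraries of batch 1 had 102, 199.5 and 94.9 for Hist1h2ap. The I0-E0 libraries had 137, 125 and 85.2, and the I0-E2 libraries had 225, 292 and 202. The I0-E4 libraries had 141, 144 and 65.3, and the I2-E2 libraries had 170.1, 214 and 127. All 3 I0-E2 libraries, and I2-E2 replicate 2, lay above every NC library of batch 1. The highest library of batch 1 was 4.48 times the lowest. The sum of the other 64 genes lay between 88.9 and 128 CPM in batch 1, a ratio of 1.44.

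In batch 2 the NC libraries had 392 and 381 CPM of Hist1h2ap, and the I3-E3-SRS libraries had 394, 357 and 431. Every library of batch 2 was above every library of batch 1, and the mean of the NC libraries was 2.92 times that of batch 1. The other 64 genes were at 87.9 and 87.5 CPM in NC of batch 2, with a mean 0.898 times that of NC in batch 1. Within the 64, Hist1h2bc was also higher in NC of batch 2, at 18.2 and 16.4 CPM against 9.54, 10.9 and 10.95. Hist1h1c was at 27.5 and 26.7 CPM against 26.5, 29.3 and 29.4, and Hist3h2ba at 6.58 and 6.33 against 8.65, 8.84 and 8.81. Summed H3 genes reached 4.57 to 6.38 CPM in batch 2 and 6.33 to 13.8 CPM in batch 1. Fragment lengths implied by the effective lengths were 193 to 220 bases in batch 1 and 223 to 255 bases in batch 2, and no group other than NC was in both. Batch differences of cells, library preparation and quantification cannot be told apart here.

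**Figure D3:**
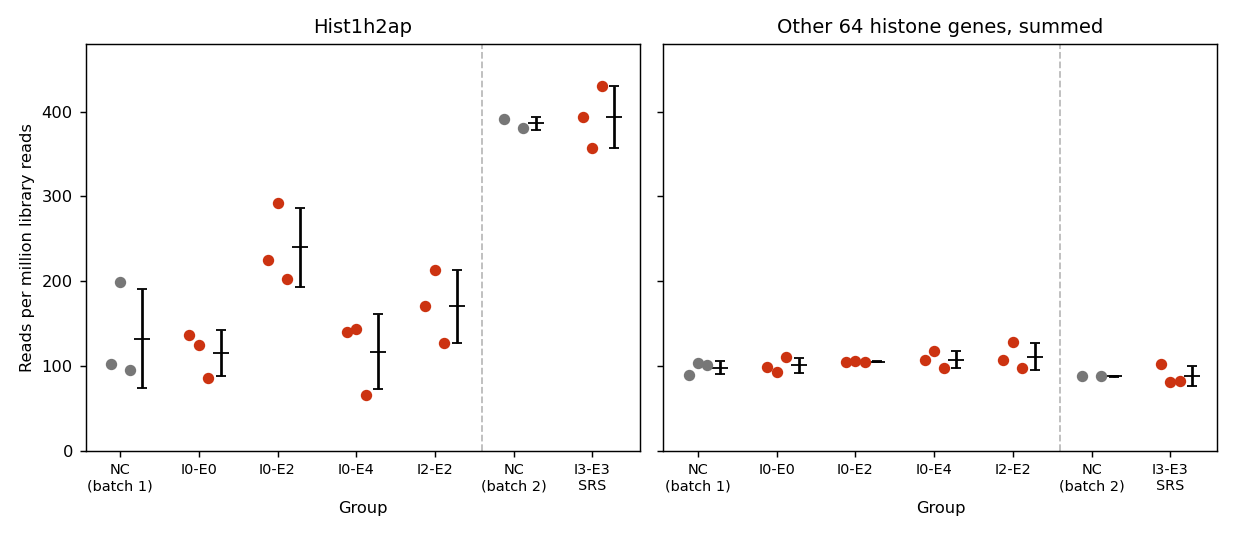
CPM (reads scaled to the library total) of Hist1h2ap (left) and of the other 64 histone genes summed (right). Each point is 1 library, grey for NC and red for exposed, the bar beside it is the group mean with its SD, and the dashed line divides the batches. Hist1h2ap lay at 65.3 to 292 in batch 1 and at 357 to 431 in batch 2, whereas the sum of the others lay at 81.0 to 128 over both.

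As a share of the library, all 65 genes together made up 0.0230 ± 0.00630% of reads in NC, 0.0216 ± 0.00203% in I0-E0, 0.0345 ± 0.00471% in I0-E2, 0.0224 ± 0.00536% in I0-E4 and 0.0281 ± 0.00590% in I2-E2 (SD, n = 3). In batch 2 it was 0.0474 ± 0.000807% in NC (SD, n = 2) and 0.0482 ± 0.00393% in I3-E3-SRS (SD, n = 3). Per class and without Hist1h2ap, batch 1 libraries ranged from 32.4 to 47.9 CPM for H1, 11.2 to 18.4 for H2A, 28.6 to 37.4 for H2B, 6.33 to 13.8 for H3 and 8.24 to 16.02 for H4.

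**Figure D4:**
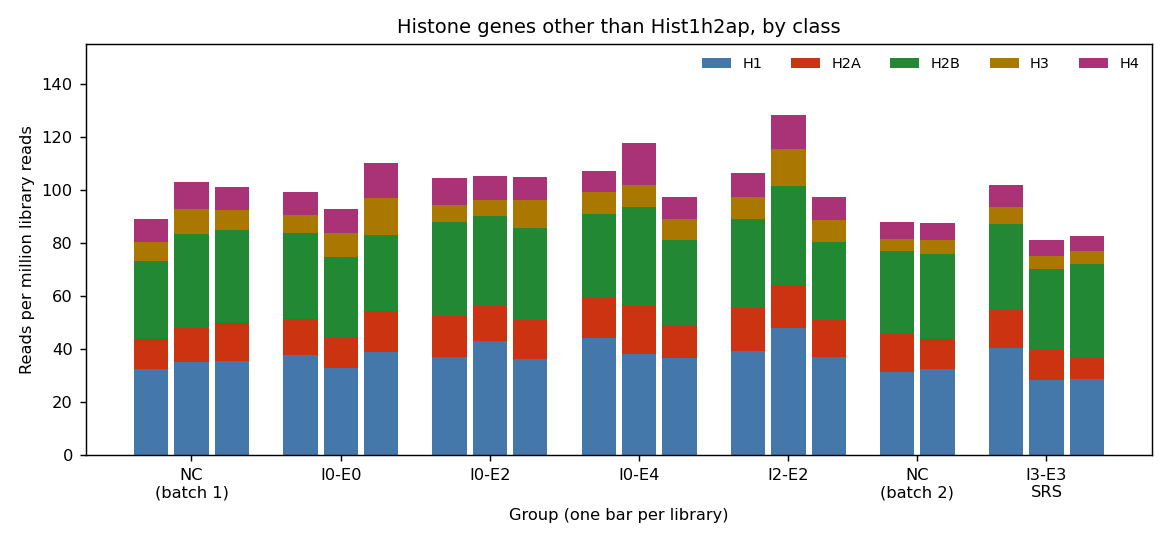
CPM (reads scaled to the library total) of the 64 histone genes other than Hist1h2ap, stacked by class, with 1 bar per library. H1 and H2B make up most of each bar, and the whole bar ranges from 81.0 to 128.

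For the comparison with NC, edgeR's quasi-likelihood test was fitted to all genes of a batch that passed a filter on low counts. Of the 65 histone genes 26 passed in batch 1, among 12296 genes, and 15 in batch 2, among 12031. After Benjamini-Hochberg adjustment over all genes, 0 histone genes were past a threshold of 0.05 in any of the 5 comparisons or in a test of any difference among the groups of batch 1. The share of all genes past it was 0.00% each time. At an unadjusted p below 0.05 the count of histone genes was 0 in I0-E0, 1 in I0-E2, 0 in I0-E4, 1 in I2-E2 and 0 in I3-E3-SRS. The shares over all genes were 3.36%, 3.36%, 7.91%, 7.19% and 4.02% in that order. On the higher side alone they were 1.84%, 1.51%, 4.16%, 3.84% and 1.53%, and on the lower side 1.52%, 1.85%, 3.76%, 3.35% and 2.49%. DESeq2 and limma-voom also called 0 histone genes in each comparison.

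In I0-E2, Hist1h2ap was the histone gene with an unadjusted p below 0.05. Its log2 fold change against NC was 0.86 (SE 0.30, 95% interval 0.24 to 1.49) with an adjusted p of 0.993 in edgeR. All 3 I0-E2 libraries were above all 3 NC libraries, as given above, and it was the 1 of 26 tested histone genes whose groups did not overlap, against 11.1% of all genes tested (5.17% higher and 5.97% lower). When the filter on low counts was dropped, which the fit for all genes otherwise uses, the edgeR adjusted p of Hist1h2ap was 1.49e-27, and in the other alternatives it was 0.605 or higher. Over the alternatives its log2 fold change lay between 0.68 and 1.29. I0-E4 had the same power with a longer dwelling time, and there the log2 fold change of Hist1h2ap was -0.17 (SE 0.30, adjusted p = 0.891), and 0.25 without NC replicate 2. On the lower side of I0-E2, Hist2h2aa2, an H2A gene, had the smallest p. Its CPM were 0, 0 and 0.546, against 0, 0.407 and 2.47 in NC, and its log2 fold change of -2.01 (SE 1.71) rests on libraries with no reads and was 0.15 without NC replicate 3.

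Among genes of its level, Hist1h2ap was one of those with the largest spread in batch 1. Of 2502 genes at 100 CPM or more, 6 had a larger standard error in this comparison, and the median was 0.067. Its biological coefficient of variation was 25.4%, against a median of 5.72%. In batch 2 its standard error was 0.090, and 348 of 2534 such genes had a larger one. In the test of any difference among the 5 groups of batch 1, Hist1h2ap had an adjusted p of 0.978 in edgeR. It was the 1 histone gene of 26 with an unadjusted p below 0.05 in that test, where 4.23% of all genes had one.

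In I2-E2, Hist1h1e, a linker histone gene, was the histone gene with an unadjusted p below 0.05. Its CPM were 2.91, 3.44 and 1.70, against 1.46, 1.47 and 0.626 in NC, and the groups did not overlap. Its log2 fold change was 1.14 (SE 0.39, 95% interval 0.32 to 1.95) with an adjusted p of 0.607 in edgeR. These values rest on 21.2, 20 and 14.3 reads in I2-E2 and 12.1, 12.1 and 4.04 reads in NC. In GENCODE vM21 24.5% of the words of Hist1h1e occur in Hist1h2be, an overlapping H2B gene. That form of Hist1h1e has 1930 bases, against 748 in the form quantified, so the share may not hold for the reads counted. Hist1h1c, at 30.6, 35.1 and 29.9 CPM against 26.5, 29.3 and 29.4, was the other of 26 genes whose groups did not overlap, where 12.1% of all genes did not (5.21% higher and 6.93% lower). Its log2 fold change was 0.18 (SE 0.12, adjusted p = 0.772). Hist1h2ap had a log2 fold change of 0.38 (SE 0.30, adjusted p = 0.798), and its groups overlapped. That value was 0.80 without NC replicate 2 and 0.17 without I2-E2 replicate 2, and its edgeR adjusted p was 0.000982 when the filter on low counts was dropped. Hist2h2be, an H2B gene at 2.88, 3.10 and 2.85 CPM against 3.004, 3.75 and 4.80, had the smallest p on the lower side, with a log2 fold change of -0.36 (SE 0.23, adjusted p = 0.765), which was -0.19 without NC replicate 3.

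In I0-E0 the groups of 4 of 26 genes did not overlap, 3 of them higher and 1 lower, against 9.07% of all genes (4.24% higher and 4.83% lower). Hist1h2be had 1.29, 1.59 and 1.4004 CPM against 0.864, 0.885 and 0.526 in NC, with a log2 fold change of 0.92 (SE 0.46). Hist3h2ba had 7.98, 6.44 and 6.94 CPM against 8.65, 8.84 and 8.81, with a log2 fold change of -0.29 (SE 0.14). The adjusted p of both was 0.9995 in edgeR. The other genes were the linker histone genes Hist1h1a and Hist1h1d, at log2 fold changes of 0.29 and 0.53. In every NC library Hist1h2be and Hist1h1a lay below the level that the filter on low counts asks for. Both were therefore tested because of exposed libraries, a selection that favours higher values in exposed groups. Hist1h2ap had a log2 fold change of -0.19 (SE 0.30, 95% interval -0.83 to 0.45), and 0.23 without NC replicate 2.

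In I0-E4 the groups of 2 of 26 genes did not overlap, against 12.5% of all genes (5.24% higher and 7.21% lower). Hist1h2be was at 1.41, 1.51 and 1.45 CPM, all above NC, with a log2 fold change of 0.95 (SE 0.47, adjusted p = 0.623 in edgeR). The I0-E0 and I0-E4 values share the same NC libraries, in which Hist1h2be had 7.30 reads or fewer per library. These reads lay below the level that the filter on low counts asks for. Hist1h2be was therefore tested because of exposed libraries, a selection that favours higher values in exposed groups. Hist1h4i, an H4 gene, was the other, at 2.75, 3.87 and 3.36 CPM against 1.83, 2.13 and 2.48, with a log2 fold change of 0.65 (SE 0.33, adjusted p = 0.628). Hist1h2br, an H2B gene that shares 89.5% of its words with Hist1h2bq, had the smallest p on the lower side, at 0.379, 0 and 0.373 CPM against 0.733, 0.256 and 2.75 (log2 fold change -1.95, SE 1.19, adjusted p = 0.667). Without NC replicate 3 this value was -0.70.

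In I3-E3-SRS, Hist1h2ap differed from NC by a log2 fold change of 0.01 (SE 0.090, 95% interval -0.20 to 0.22), which was the narrowest interval of its 5 comparisons. The groups of 2 of 15 genes did not overlap, against 18.4% of all genes (10.7% higher and 7.71% lower). Hist1h2bk, an H2B gene, had 2.23, 1.19 and 1.70 CPM against 0.888 and 0.805, with a log2 fold change of 1.01 (SE 0.47). Hist2h3c1, an H3 gene with no word of its own, had a log2 fold change of 1.01 (SE 0.58). Hist1h2bk and Hist2h3c1 lay below the level that the filter on low counts asks for in every NC library of this batch. Both were therefore tested because of I3-E3-SRS libraries, a selection that favours higher values in that group. Hist1h2ao had the smallest p on the lower side (log2 fold change -1.17, SE 1.05), with 1.51, 1.31 and 0 CPM against 3.33 and 0.858. The fold change was -0.05 without NC replicate 1, -0.52 without I3-E3-SRS replicate 3 and -1.93 without NC replicate 2. Its value depends on the division of reads with Hist1h2ap described above.

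**Figure D5:**
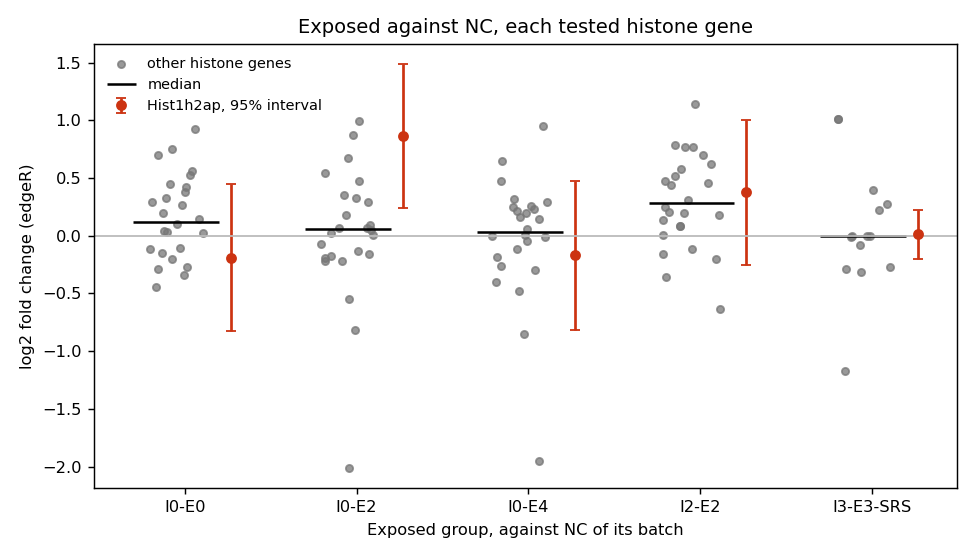
log2 fold change from edgeR of each tested histone gene in each exposed group against NC of its batch (26 genes in batch 1, 15 in I3-E3-SRS). Grey points are single genes, black lines the median, and red points Hist1h2ap with its 95% interval, which lies above 0 in I0-E2 alone. No gene was past the threshold after adjustment over all genes.

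As a group the tested histone genes had a median log2 fold change of 0.12 in I0-E0, 0.06 in I0-E2, 0.03 in I0-E4, 0.28 in I2-E2 and 0.00 in I3-E3-SRS, where the median over all genes was within 0.01 of 0. Values above 0 were found for 17, 16, 15 and 21 of 26 genes in batch 1 and for 8 of 15 in I3-E3-SRS, beside 51.4%, 50.2%, 50.7%, 51.2% and 48.6% of all genes. The counts of batch 1 are not independent, because they share the same 3 NC libraries. There the sum of the other 64 genes had a mean of 97.6 CPM, against 101 to 111 in the exposed groups. Some of the 26 genes also passed the filter through exposed libraries, as given above. The median of I2-E2 was 0.54 without I2-E2 replicate 3 and 0.077 without I2-E2 replicate 2. The median standard error of a tested histone gene was 0.43 to 0.47, against 0.089 to 0.093 over genes at 10 CPM or more.

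Genes around the histone pathway were counted in the same fits, and none was past the adjusted threshold in any comparison. Of 15 factors of histone mRNA 3′ processing and decay, 1 was higher at an unadjusted p below 0.05 in I0-E4 and 1 higher and 1 lower in I2-E2. Over all genes the shares were 4.16% higher in I0-E4, and 3.84% higher and 3.35% lower in I2-E2. Slbp was the higher one both times, with log2 fold changes of 0.16 (SE 0.066, adjusted p = 0.612) in I0-E4 and 0.18 (SE 0.066, adjusted p = 0.631) in I2-E2. Casp8ap2, which takes part in histone gene transcription and 3′ processing, was the lower one, at -0.22 (SE 0.098, adjusted p = 0.668). In I0-E2, the group of batch 1 with the highest mean of Hist1h2ap, Slbp had a log2 fold change of 0.10 (SE 0.065, adjusted p = 0.993). The 10 transcription factors and cyclin partners of histone genes were counted at an unadjusted p below 0.05. Of them, 1 was higher in I0-E0, 1 lower in I0-E2, 1 lower in I0-E4 and 2 higher in I2-E2. Over all genes the shares were 1.84% higher, 1.85% lower, 3.76% lower and 3.84% higher in that order. None passed in I3-E3-SRS, and of the 10 histone chaperones none passed in any comparison.

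The 11 replication-independent variants had values above 0 in 11 of 11 genes in I0-E4, with a median of 0.14, and in 10 of 11 in I2-E2, with a median of 0.12, beside 50.7% and 51.2% of all genes. The count was 6 of 11 in I0-E0 and 8 of 11 in both I0-E2 and I3-E3-SRS, with medians of 0.00, 0.04 and 0.01. In I0-E4, 5 had p below 0.05, where 4.16% of all genes did so on the higher side. Among them were H1fx, a linker histone (0.38, SE 0.11), H2afj (0.48, SE 0.16) and H2afx, the H2A that is phosphorylated at DNA breaks (0.18, SE 0.075). Their adjusted p was 0.612 in edgeR. Of the 20 S phase genes, Slbp among them, 1 was lower at an unadjusted p below 0.05 in I0-E0, where 1.52% of all genes were. In I0-E4, 3 were higher, against 4.16% of all genes. In I2-E2, 1 was higher and 1 lower, against 3.84% and 3.35% of all genes. None passed in I0-E2 or I3-E3-SRS. The medians of these 20 genes were 0.03 to 0.06. Their summed level was 3690 to 3961 CPM in batch 1 and 3815 to 3938 CPM in batch 2.

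Over the 15 libraries of batch 1, the sum of the other 64 genes was lower in libraries with longer fragments. Pearson's r was -0.59 (permutation p = 0.0147, adjusted p = 0.103 over 7 relations) and Spearman's rho was -0.74 (permutation p = 0.00274, adjusted p = 0.0192). Without the 2 libraries farthest from the median fragment length r was -0.56, and with group means removed it was -0.70. For Hist1h2ap and fragment length r was -0.31 (permutation p = 0.252) and rho was -0.29 (permutation p = 0.294), and r was -0.08 without the 2 farthest libraries. Hist1h2ap and the sum of the other 64 had r = 0.39 (permutation p = 0.169) and rho = 0.46 (permutation p = 0.0869), and r was 0.52 without the 2 libraries farthest in Hist1h2ap. The adjusted p of the relations other than that of fragment length with the 64 genes, which include the number of genes detected and the S phase sum, was 0.304 or higher. Batch 2, with 5 libraries, was too small for these relations. The library total was not among the 7 relations. The sum of the other 64 genes was highest, at 128 and 118 CPM, in I2-E2 replicate 2 and I0-E4 replicate 2. These had 5808532 and 5623685 reads, against 6460014 or more in the other libraries of batch 1. Fragment length was therefore not tested apart from the library total. Between single members the correlation was weak, with a median r of 0.10 over 325 pairs of the 26 genes tested in batch 1 (20 libraries, log2(CPM + 1), group means removed), which is a description of sparse counts.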

How the data were processed

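Bulk RNA was measured in 20 libraries of N2A cells, and group, number and batch were read from the sample labels. Salmon, which the submitters' processing notes name, was run by the authors on each library, and they deposited an estimated count and a TPM for each transcript. The deposited estimated counts are not normalized between libraries, and the deposited TPM are those counts divided by an effective length and scaled to a fixed sum. Which transcript release, build and version of Salmon they used is not given in the sources at hand. Of 107368 transcript identifiers 98.6% were found in GENCODE vM21 (GRCm38), and the others held 0.664% to 0.748% of reads and were left out.

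Estimated counts of transcripts were added up into 34083 genes and rounded to whole numbers for the fits. Within each batch, genes were filtered with filterByExpr (minimum count 10) and scaled by TMM, whose factors were 0.977 to 1.012, and edgeR's quasi-likelihood test (glmQLFit, glmQLFTest) was fitted with a term for group alone (10 residual degrees of freedom in batch 1, 3 in the smaller batch). Adjusted p-values are Benjamini-Hochberg over all genes tested. CPM are reads scaled to the library total and carry counting error and the division of shared reads. Fragment length is the median of length minus effective length plus 1 over transcripts longer than 3000 bases. The share of 31-base words that occur in no other gene was computed from GENCODE vM21 transcripts. For the 22 member transcripts that differ in version or length, shares of words describe the vM21 form and may not hold for the form quantified. Correlations across libraries were tested with 100000 permutations, two-sided. Between libraries of the same group the chi-square per gene for sampling noise was 2.42 or more. It was highest, at 19.8, between the NC libraries of batch 2, and at most 9.62 in the other groups. The division of shared reads can add to it, so these values do not show that wells were separate cultures.

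The named genes are the 10 members of highest mean TPM, in each comparison the tested members with the smallest p on the higher and on the lower side, members with no reads, and members whose annotated ends differ. A few others, named because their groups did not overlap or because they share words with a named gene, were chosen after their values were seen, as were Slbp, Casp8ap2 and the named variants. Members and lists were chosen with earlier results of these data known. A list of 11 other RNAs without a poly(A) tail had no gene in the tables. The fits were tested on simulated data. Alternatives were library totals, DESeq2 size factors, DESeq2, limma-voom, limma-trend, log2(TPM + 0.1) and log2(TPM + 1) in limma, no filter beyond 1 read, the 2 groups alone, a replicate block and leaving out each library. TPM values without NC replicate 1 of batch 2 were added after seeing the data. Python 3.11.15 with pandas 2.3.3 and scipy 1.17.1 was used for sums and permutations, and the fits were run in R 4.3.3 with DESeq2 1.42.0, edgeR 4.0.16 and limma 3.58.1.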

Additional observations from a re-analysis of the deposited data

Results flagged for a closer look

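Hist2h2be, an H2B gene, lay above the NC mean in all 3 I0-E2 libraries and below it in all 3 I2-E2 libraries, which received the same fluency. The log2 fold changes were 0.35 (SE 0.22) and -0.36 (SE 0.23), a difference of 0.71, and this difference was not tested. Hist2h2be and Hist1h2bk are given here because a screen of the members flagged them as differing between groups. Their differences were thus selected by size and are no support for an effect.

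Hist1h2bk, another H2B gene, lay above the NC mean of its batch in all 3 I3-E3-SRS libraries and below it in all 3 I0-E2 libraries. The log2 fold changes were 1.01 and -0.22, a difference of -1.23 for I0-E2 minus I3-E3-SRS, which was not tested and which lies across batches. No group had enough libraries for a test of single outlying values.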

How the results depend on the processing

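The count of histone genes past the threshold stayed at 0 in all 6 tests under each alternative, including every left-out library, except without the filter on low counts. There it was 1 in I0-E2, 1 in I2-E2 and 1 in the test of any difference, each time Hist1h2ap (adjusted p = 1.49e-27 and 0.000982 in the first 2), while 46, 160 and 353 of all genes were called, and the cause was not tested. Over all genes the count was 0 in each test, against 15 in I3-E3-SRS with DESeq2, 6 there with a replicate block and 671 there without NC replicate 2, and 46 to 353 without the filter. The median log2 fold change in I0-E0 was 0.051 with log2(TPM + 1), and leaving out a library gave -0.022 to 0.17. In I0-E2 it was -0.0040 and -0.031 with log2(TPM + 0.1) and log2(TPM + 1), and 0.060 to 0.12 with a library left out. In I0-E4 it was 0.17 without the filter and 0.17 with the 2 groups alone, and -0.086 to 0.15 with a library left out. In I2-E2 it was 0.077 to 0.54 with a library left out. In I3-E3-SRS it was 0.48 and 0.45 with both TPM scales, where NC replicate 1 enters, and leaving out a library gave -0.05 to 0.05. Summed TPM made up 0.0994% in NC, 0.0907% in I0-E0, 0.156% in I0-E2, 0.0893% in I0-E4, 0.120% in I2-E2, 0.187% in NC of batch 2 (0.253% without replicate 1) and 0.241% in I3-E3-SRS, where short transcripts weigh more than in reads. Leaving out a library gave a log2 fold change of Hist1h2ap of -0.38 to 0.23 in I0-E0 (0.23 without NC replicate 2), -0.36 to 0.25 in I0-E4 (0.25 without NC replicate 2 and 0.13 without I0-E4 replicate 3) and -0.067 to 0.081 in I3-E3-SRS (-0.023 without NC replicate 2 and -0.067 without I3-E3-SRS replicate 3), and of Hist2h2aa2 in I0-E2 of -5.73 to 0.15 (0.15 without NC replicate 3). Replicate numbers did not pair the libraries over all genes, since same-numbered libraries of batch 1 had correlations of deviations of -0.21 to 0.19 and 6 of 15 were closest to their own number. With a replicate block 0 histone genes were called, Hist1h2ap in I0-E2 had an adjusted p of 0.767, and its value in I3-E3-SRS was -0.069.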

Other observations

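Within batch 1, the library numbered 3 had the lowest Hist1h2ap CPM in 5 of 5 groups, and the library numbered 2 had the highest in 4 of 5. This was noticed after the values were seen, and the labels do not say what the numbers share. The library numbered 2 also had the highest sum of the other 64 histone genes in 4 of 5 groups, whereas the lowest sum lay in libraries numbered 1, 2 and 3 in 2, 1 and 2 groups. For summed S phase genes the library numbered 3 was lowest in 2 of 5 groups. With a replicate block in edgeR, Hist1h2ap had a log2 fold change of 0.92 in I0-E2 (adjusted p = 0.767 over all genes, higher in 3 of 3 libraries), against 0.86 and an adjusted p of 0.993 without it.

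Reads of a few members were divided between isoforms. Hist1h2bq, an H2B gene, had 57.9% of its reads on a spliced transcript of 3 exons and 13.5% on its single-exon transcript of 388 bases. Hist1h2be had 43.3% of its reads on a single-exon transcript of 2099 bases and the rest on transcripts of 2 exons. These divisions rest on 333 and 170 reads over all 20 libraries. In GENCODE vM21, where some transcripts of Hist1h2bq differ in length from those quantified, 98.3% of its words also occur in Hist1h2br.

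Over all 20 libraries with group means removed, the summed histone percent and the number of genes with a read had r = -0.30, and -0.43 without I0-E0 replicate 3, the library with the most genes detected.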
